A study of Mus musculus with 10 samples.

Results

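Inner ears of mouse embryos, all labelled E16.5 (days of embryonic development), differed in how much RNA of the embryonic beta-type globin Hbb-y they held, and the 10 RNA-seq libraries of the series were divided by that level. The 5 high libraries had an Hbb-y value of 10 or more and were nmf219 replicate 5 and WT replicates 1 to 4. The 5 low libraries were below 10 and were nmf219 replicates 1 to 4 and WT replicate 5. Animals of the first genotype were homozygous for nmf219, an allele of Tbx1, a T-box transcription factor gene that acts in the otic vesicle and the tissue around it, and WT animals were +/+. Every library came from a C57BL/6 inner ear that had been snap frozen, and no treatment is named. Values are reads per gene scaled by library to nearly CPM, called normalized values here. The labels do not say whether each library came from a separate embryo or litter, so the tests weigh differences only against the spread among the libraries at hand.

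Primitive red cells, which arise in the yolk sac, carry the embryonic globins, and definitive red cells from the fetal liver, which replace them in the circulation as gestation proceeds, carry the adult globins. In the same days of development the inner ear passes from growth to differentiation: the sensory epithelium leaves the cell cycle, hair cells build bundles and synapses, and cartilage and connective tissue form around the labyrinth. The RNA-binding protein Lin28b and the let-7 microRNAs it holds back form a timing system whose targets, Hmga2 among them, decline as tissues mature.

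Below, the values of a gene are given in 1 order: nmf219 replicate 5 and then WT replicates 1 to 4 for the high libraries, and nmf219 replicates 1 to 4 and then WT replicate 5 for the low libraries. The groups were chosen by Hbb-y, so every globin value is a description and has no test. Hbb-y had normalized values of 33.00, 11.4, 15.8, 20.5 and 44.4 in the high libraries, against 6.15, 4.28, 3.66, 4.15 and 3.10 in the low libraries. The values nearest to the threshold were 11.4 in WT replicate 1 and 6.15 in nmf219 replicate 1, and WT replicate 4 stood highest. As a share of the beta-type globin RNA (Hbb-y, Hbb-bs and Hbb-bt), Hbb-y made up 1.21, 0.545, 0.730, 0.957 and 3.51% in the high libraries, against 0.163, 0.171, 0.135, 0.139 and 0.0648% in the low libraries. Hba-x, the embryonic alpha-type globin, had values of 12.5, 5.01, 5.01, 8.47 and 11.5 in the high libraries, against 3.92, 3.07, 2.64, 3.03 and 2.92 in the low libraries. Its groups did not overlap either, with WT replicates 1 and 2 nearest to the low libraries. The adult gene Hbb-bs ran the other way, with values of 2109, 1660.2, 1760.0, 1736 and 967 in the high libraries, against 3112, 2065, 2239, 2445 and 3983 in the low libraries. These overlapped, since nmf219 replicate 5 was above nmf219 replicate 2, and the mean was 1646 ± 417 in high and 2769 ± 786 in low libraries (SD, n = 5 each). In bulk tissue, fewer cells of a type and less RNA per cell cannot be told apart.

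The promoters of the embryonic gene that set the groups and of its most abundant adult relative are shown for the motifs they share. Each line holds the 120 bases before the RefSeq start (GRCm38.p6, minus strand), 5′ to 3′, with CCAAT and CACCC, searched on both strands, in capitals; the window of Hbb-y is chr7:103853208-103853327 and that of Hbb-bs is chr7:103827929-103828048. Both windows hold 1 match to each motif. Of all 27025 RefSeq promoters, 34.5% hold CCAAT and 51.3% hold CACCC within 250 bases before the start, so a match is common and is a description only.
Hbb-y: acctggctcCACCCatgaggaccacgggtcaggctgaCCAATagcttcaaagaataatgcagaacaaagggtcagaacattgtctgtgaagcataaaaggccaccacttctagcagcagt
Hbb-bs: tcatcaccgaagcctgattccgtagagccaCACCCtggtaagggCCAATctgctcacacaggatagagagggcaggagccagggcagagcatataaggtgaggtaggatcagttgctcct

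**Figure D1:**
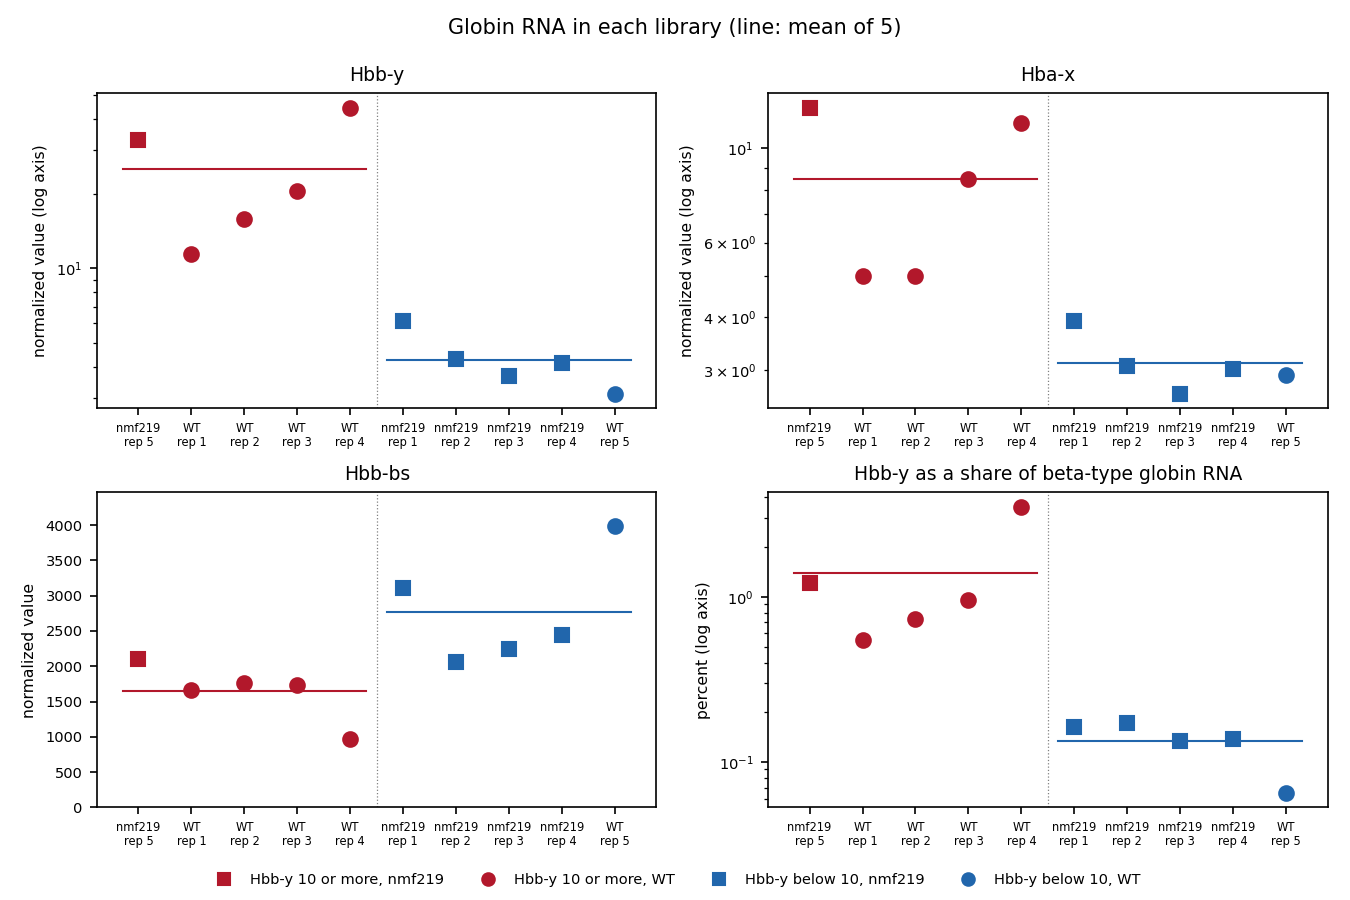
Normalized values of Hbb-y and Hba-x (log axes) and of Hbb-bs (linear axis), and the share of Hbb-y in beta-type globin RNA in percent (log axis), in each of the 10 libraries; squares are nmf219, circles WT, and lines the mean of 5 libraries. High libraries, left of the dotted line, lie at 11.4 or more for Hbb-y and low libraries at 6.15 or less, whereas the Hbb-bs values of the groups overlap.

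The libraries held 31244799 to 41875972 reads, with no difference in depth found between high and low libraries (two-sided exact permutation test on log2 depth, p = 0.968). Esrrb, a nuclear receptor gene of marginal cells, was at 8.40 to 14.0 in the 5 nmf219 libraries and 15.6 to 45.1 in the 5 WT libraries, so neither nmf219 replicate 5 nor WT replicate 5 carried the other genotype's level. Tbx1 averaged 25.5 ± 4.06 in high and 23.9 ± 1.77 in low libraries (SD, n = 5 each; limma adjusted p = 0.380). Numbers in the sample descriptions fall in the ranges 2162 to 2169 and 2199 to 2208, and 4 of 5 high libraries against 1 of 5 low libraries lay in the upper one (Fisher's exact test, two-sided, p = 0.206). The sources used here do not say what these numbers mark. Xist, the RNA made from the inactive X chromosome, was under 100 in 2 of 5 high libraries (WT replicates 3 and 4) and in 1 of 5 low libraries (WT replicate 5). Genes that define inner ear tissue were present in every library, among them Otor, a secreted otic fibrocyte protein, at 292, 411, 339.6, 322 and 225 in the high libraries, against 364, 420.3, 462, 432 and 527 in the low libraries. Inner ears of both groups also held skeletal muscle RNA in amounts that varied by library, given with the comparison of genotypes.

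Because the split crosses genotype, with 1 high nmf219 library and 1 low WT library, genotype was a term in the fit and the difference given for a gene is the mean of its high minus low differences within nmf219 and within WT. WT replicate 5 and nmf219 replicate 5 thus carry 1 side each of those differences. All differences are on the log2(value + 1) scale with their standard error, on which changes of low genes are understated, and tests were limma with Benjamini-Hochberg adjustment over the 15466 genes other than globins. No gene passed an adjusted p of 0.05, the lowest being 0.106. At an unadjusted p under 0.05 there were 3249 genes, 21.0% of those tested, 1582 of them higher (10.2%) and 1667 lower (10.8%) in high libraries. All 5 high libraries lay above all 5 low ones for 587 genes (3.80%) and below them for 593 genes (3.83%). The difference had the same sign in both genotypes for 11092 genes, or 71.7%, higher in both for 37.2% and lower in both for 34.5%. Over all genes, 51.7% of differences were above 0 and 48.3% below.

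The number called depended on the tool and on single libraries. edgeR's quasi-likelihood test on the reads recovered from the values called 0 genes, with 3210 at an unadjusted p under 0.05, and DESeq2 called 605, 278 higher (1.80%) and 327 lower (2.11%). Without WT replicate 1, which has the lowest Hbb-y of the high libraries, limma called 1154 genes, and without WT replicate 4, which has the highest, it called 423. Without WT replicate 5 or nmf219 replicate 5 the count of called genes was 0, with 826 and 2035 of 15466 genes at an unadjusted p under 0.05. The 3249 genes found with all 10 libraries, and the background shares drawn from them, thus lean on these libraries, most on WT replicate 5. When log2(Hbb-y + 1) entered as a continuous term in place of the split, 2922 genes were called, 1430 higher (9.25%) and 1492 lower (9.65%) with more Hbb-y, and 880 without WT replicate 4. That term uses the values that made the split, so its counts are no separate support. Its counts for the lists below include WT replicate 4. What follows describes genes and gene lists by their values, with these shares as the background. Counts of list members at an unadjusted p under 0.05 are to be read against 10.2% of all genes higher and 10.8% lower. Counts without overlap are to be read against 3.80% above and 3.83% below, and DESeq2 counts against 1.80% and 2.11%. The lists were chosen with earlier results of these data known, so no list has a test.

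Among the 12 leading genes that were higher in high libraries were regulators of growth and of early development. Hmga2, a chromatin protein of proliferating embryonic tissue and a let-7 target (chr10:120361275-120476469, as the deposited table gives it without naming a build), had normalized values of 86.7, 62.95, 82.5, 82.7 and 125 in the high libraries, against 55.9, 58.4, 46.4, 51.5 and 45.9 in the low libraries. Every high library was above every low one, and WT replicate 4 was the highest (log2 difference 0.80 ± 0.18, limma adjusted p = 0.106). Otx2, a homeobox factor of the head (chr14:48657679-48667644), had values of 6.97, 9.88, 10.6, 9.61 and 13.2 in the high libraries, against 5.29, 3.87, 5.002, 5.21 and 5.27 in the low libraries. The groups did not overlap, nmf219 replicate 5 being the lowest of the high libraries, and the mean was 2.04-fold higher (log2 difference 0.68 ± 0.14, limma adjusted p = 0.106). Pcdh8, a protocadherin of cell adhesion, had values of 10.1, 9.15, 9.37, 9.07 and 11.6 in the high libraries, against 6.83, 6.92, 6.72, 7.40 and 6.33 in the low libraries. It too separated the groups (log2 difference 0.52 ± 0.088, limma adjusted p = 0.106), and its differences of 0.48 within nmf219 and 0.55 within WT were close in size.

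The other genes of this direction had smaller or less even differences. Prkg2, a cGMP-dependent kinase of growth plate cartilage, had values of 25.2, 22.7, 27.4, 25.6 and 42.5 in the high libraries, against 20.2, 17.1, 19.8, 18.2 and 18.5 in the low libraries. Its groups did not overlap, and WT replicate 4 stood apart from the rest (log2 difference 0.51 ± 0.17, limma adjusted p = 0.153). Neurod1, a transcription factor of young otic neurons, had values of 2.85, 1.87, 2.51, 2.16 and 4.22 in the high libraries, against 1.23, 1.89, 1.99, 1.60 and 1.49 in the low libraries, with WT replicate 1 below nmf219 replicates 2 and 3 (log2 difference 0.53 ± 0.19, limma adjusted p = 0.167). Fat3, an atypical cadherin, averaged 41.4 ± 2.97 in high and 31.2 ± 7.40 in low libraries (log2 difference 0.61 ± 0.14, limma adjusted p = 0.106). Adamtsl2, a protein of the extracellular matrix, averaged 10.4 ± 2.37 in high and 7.66 ± 0.826 in low libraries (log2 difference 0.59 ± 0.14, limma adjusted p = 0.106), and Dusp9, a phosphatase of MAP kinases, averaged 3.19 ± 1.03 in high and 1.82 ± 0.103 in low libraries (log2 difference 0.55 ± 0.19, limma adjusted p = 0.159). These 3 genes overlapped between groups. Hist1h2ap (log2 difference 0.53 ± 0.11, limma adjusted p = 0.106) and Hist1h2ao (log2 difference 0.51 ± 0.13, limma adjusted p = 0.112) encode replication-dependent H2A histones with near-identical copies, so the split of reads among them is uncertain. Dnm3os (log2 difference 0.59 ± 0.23, limma adjusted p = 0.182) lies antisense to Dnm3, and without a stated strand setting their reads cannot be told apart. Gvin1, one of a family of similar GTPase genes, was listed at 0 in WT replicate 5 and at 3.15 to 6.39 in the other low libraries, against 3.04 to 6.89 in high libraries, so its difference of 1.32 ± 0.39 (limma adjusted p = 0.125) rested on that library.

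The 12 leading genes that were lower in high libraries included markers of bone, epidermis, macrophages and fibroblasts. In all 12 the high libraries lay below every low one, against 3.83% of all genes. Leading genes of both directions were chosen for a small p in these same libraries, which favours separation, so their separation is a description only. Sp7, the transcription factor that commits cells to the osteoblast lineage (chr15:102356609-102366325), had normalized values of 6.55, 8.64, 7.04, 6.57 and 5.23 in the high libraries, against 10.9, 10.9, 12.7, 11.1 and 12.8 in the low libraries. WT replicate 1 came nearest to the low libraries and WT replicate 4 was lowest (log2 difference -0.77 ± 0.13, limma adjusted p = 0.106). Cd163, the macrophage scavenger receptor for hemoglobin bound to haptoglobin (chr6:124304656-124330527), had values of 0.793, 1.41, 0.687, 0.635 and 0.167 in the high libraries, against 2.17, 2.32, 2.72, 2.16 and 3.10 in the low libraries. The high mean was 3.38-fold below the low one (log2 difference -1.10 ± 0.21, limma adjusted p = 0.106), at a low level in both groups. Col17a1, a collagen of the hemidesmosomes that anchor basal keratinocytes, had values of 2.09, 2.22, 2.15, 2.25 and 1.10 in the high libraries, against 5.55, 3.87, 4.36, 4.25 and 4.53 in the low libraries. WT replicate 4 was lowest again (log2 difference -0.88 ± 0.16, limma adjusted p = 0.106). Pi16, a marker of adventitial fibroblasts, had values of 0.819, 1.17, 0.806, 0.762 and 0.549 in the high libraries, against 3.40, 2.37, 1.59, 1.70 and 2.54 in the low libraries. Its low libraries ranged more widely than its high ones (log2 difference -0.89 ± 0.19, limma adjusted p = 0.106).

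The smallest p-value belonged to Apod, a lipid carrier of fibroblasts and glia (chr16:31296192-31314808), with values of 57.4, 64.5, 62.9, 55.1 and 53.00 in the high libraries, against 70.6, 81.7, 84.1, 78.1 and 89.5 in the low libraries. The log2 difference was -0.52 ± 0.082 (limma adjusted p = 0.106, DESeq2 adjusted p = 1.42e-05). Ucma, a secreted protein of the growth plate, averaged 2.09 ± 0.327 in high and 3.77 ± 0.301 in low libraries (log2 difference -0.68 ± 0.11, limma adjusted p = 0.106). Rph3a, a Rab effector on synaptic vesicles, averaged 12.03 ± 2.15 in high and 18.6 ± 3.05 in low libraries (log2 difference -0.72 ± 0.15, limma adjusted p = 0.106). Ndufa4l2, a mitochondrial protein known for its induction by low oxygen, averaged 6.04 ± 1.96 in high and 10.6 ± 1.21 in low libraries (log2 difference -0.96 ± 0.18, limma adjusted p = 0.106). Ppp1r14c, an inhibitor of protein phosphatase 1, and Nupr1, a stress-induced nuclear protein, had log2 differences of -0.52 ± 0.096 and -0.57 ± 0.12 (limma adjusted p = 0.106 for each). Krt6a, an epithelial keratin (log2 difference -1.11 ± 0.22, limma adjusted p = 0.106), and Mup10, one of many near-identical major urinary protein genes (log2 difference -0.91 ± 0.19, limma adjusted p = 0.106), were under 3 in every library.

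**Figure D2:**
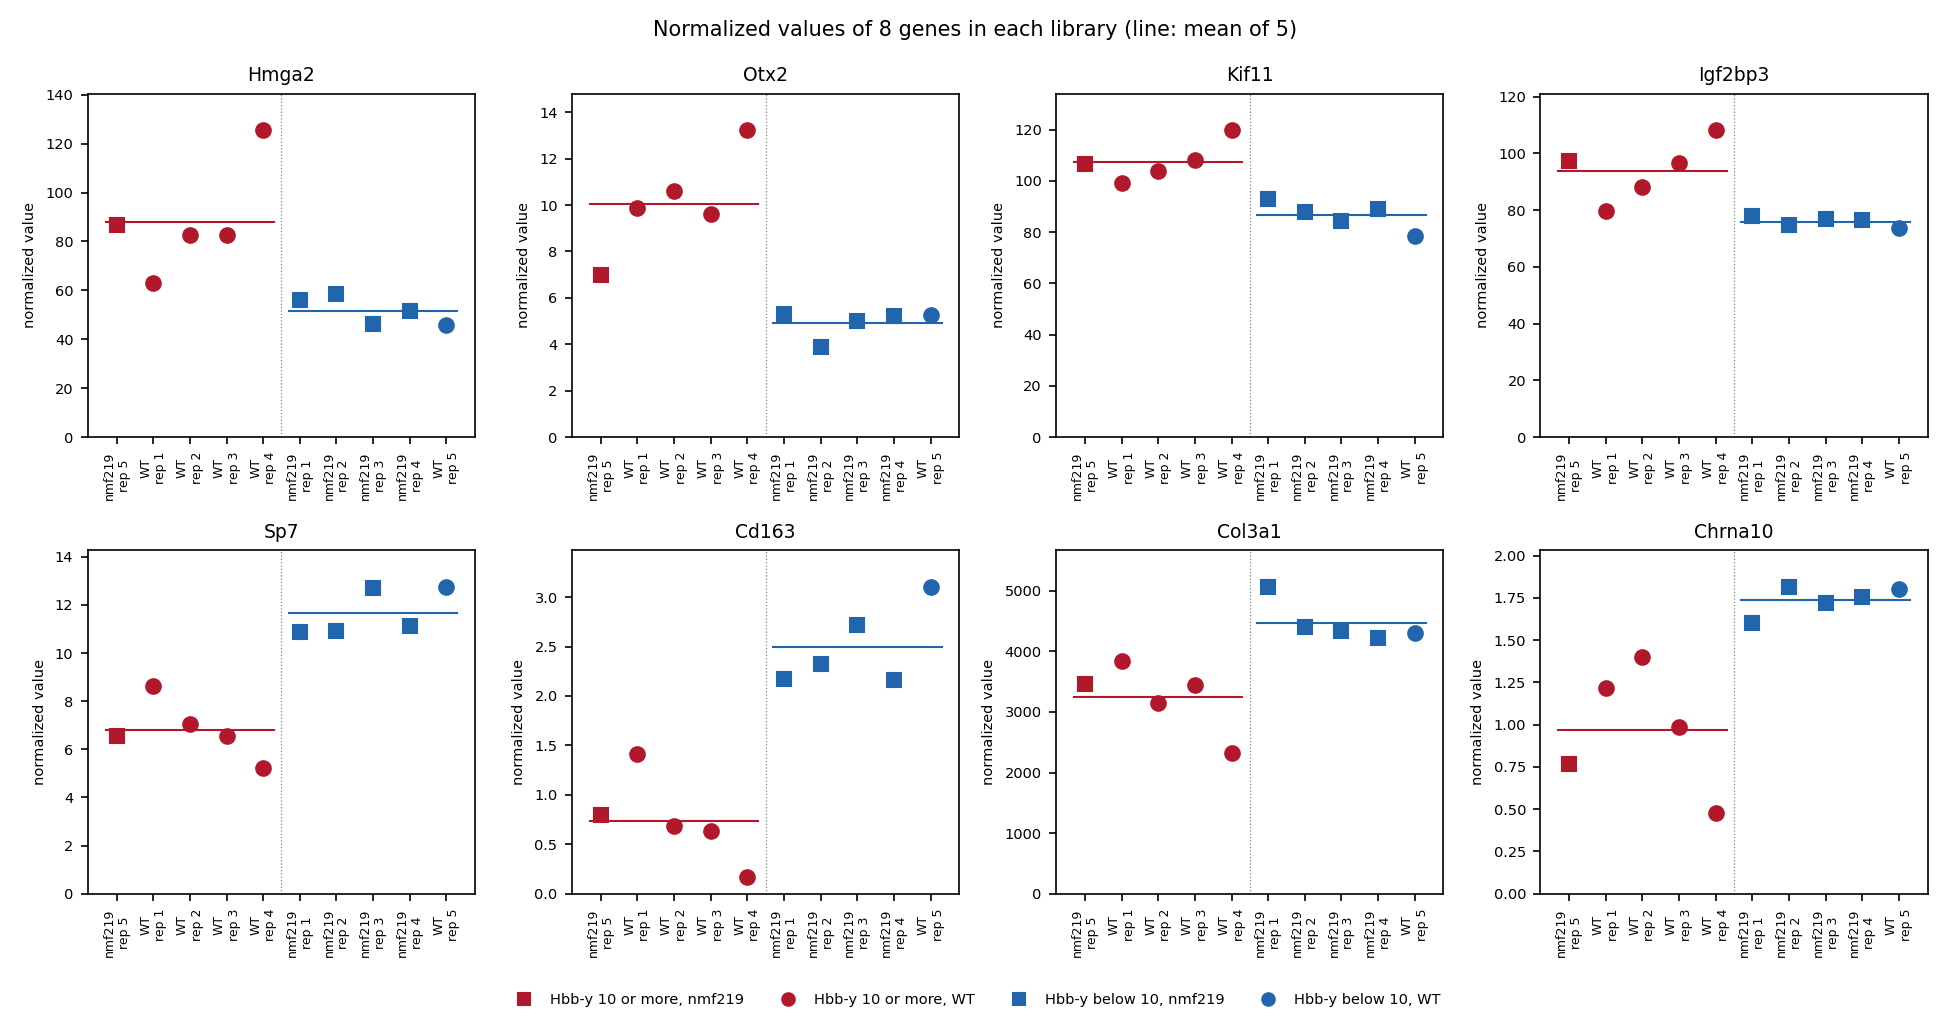
Normalized values (linear axes from 0) of 8 genes in each library; squares are nmf219, circles WT, red the high and blue the low libraries, and lines the mean of 5. For all 8 genes the groups do not overlap, as for Hmga2 with 62.95 or more in high and 58.4 or less in low libraries, and among the high libraries WT replicate 4 lies farthest from the low ones. The 8 were picked among the named genes, so their separation is a description only.

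Genes of cell division were higher in high libraries throughout their list. All 20 genes of the cell cycle list were higher and at an unadjusted p under 0.05, against 10.2% of all genes, and 13 of 20 separated the groups without overlap, against 3.80% (median log2 difference 0.34, 0.25 within nmf219 and 0.42 within WT, against a median of 0.0053 over all genes). None passed the adjusted threshold with limma, and DESeq2 called 19 of 20, against 1.80%. The continuous Hbb-y term, which uses the values that made the split and is no separate support, called 20 of 20, against 9.25%. Mki67, the proliferation antigen that coats mitotic chromosomes, had values of 392, 387, 410.0, 408 and 441 in the high libraries, against 348, 348, 314, 365 and 302 in the low libraries. Every high library was above every low one (log2 difference 0.32 ± 0.069, limma adjusted p = 0.106). Kif11, the kinesin that separates spindle poles, had values of 106, 99.3, 104, 108 and 119.8 in the high libraries, against 93.1, 87.9, 84.2, 89.2 and 78.5 in the low libraries. WT replicate 5 was lowest and WT replicate 4 highest (log2 difference 0.36 ± 0.067, limma adjusted p = 0.106). Top2a, the topoisomerase that untangles replicated DNA, averaged 314 ± 24.2 in high and 256 ± 16.9 in low libraries (log2 difference 0.34 ± 0.073, limma adjusted p = 0.106), and Cenpf, a kinetochore protein, averaged 116 ± 7.65 in high and 94.7 ± 6.33 in low libraries (log2 difference 0.33 ± 0.067, limma adjusted p = 0.106). The differences of the 20 genes ran from 0.24 to 0.39, a narrow span of small effects. In a fit added after the data were seen, with the skeletal muscle list and Hbb-bs as further terms, the median was 0.21. That fit called 0 genes, with 555 of 15466 at an unadjusted p under 0.05, against 3249 without those terms.

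The promoters of many mitotic genes carry a cell cycle genes homology region (CHR) and CCAAT boxes. Since members of the list differed in 1 direction, the 120 bases before the RefSeq start (GRCm38.p6) are shown for the 3 members with the smallest p that hold both, 5′ to 3′ on the gene's strand, with matches on either strand to TTTGAA or TTCGAA and to CCAAT in capitals. The windows are chr19:37376262-37376381 (plus strand) for Kif11, chr11:99024190-99024309 (minus) for Top2a and chr10:69352913-69353032 (minus) for Cdk1, the kinase that starts mitosis, which had a log2 difference of 0.34 ± 0.081 (limma adjusted p = 0.107).
Kif11: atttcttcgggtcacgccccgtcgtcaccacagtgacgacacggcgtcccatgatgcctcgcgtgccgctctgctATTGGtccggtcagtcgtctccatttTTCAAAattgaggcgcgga
Top2a: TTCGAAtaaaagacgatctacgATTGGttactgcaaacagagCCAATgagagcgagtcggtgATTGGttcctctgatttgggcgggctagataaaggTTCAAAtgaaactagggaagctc
Cdk1: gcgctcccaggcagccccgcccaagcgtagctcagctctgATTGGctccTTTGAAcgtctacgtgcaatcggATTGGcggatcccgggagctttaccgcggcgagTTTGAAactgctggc

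RefSeq promoters were at hand for 16 of the 20 cell cycle genes, and 8 of these 16 (50%) held both motifs within 250 bases before the start, against 6.21% of all 27025 promoters. CCAAT alone was in 14 of 16 (87.5%), against 34.5%, and the CHR letters alone in 8 of 16 (50%), against 17.4%. The motifs do not overlap each other in these windows, and a match describes letters, not binding.

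Genes of DNA replication went the same way with smaller differences. All 18 were higher and at an unadjusted p under 0.05, against 10.2% of all genes. The groups were separated by 2 of 18, against 3.80% (median log2 difference 0.26, 0.19 within nmf219 and 0.34 within WT). Mcm7, a subunit of the replicative helicase, had values of 94.1, 89.3, 91.5, 100.5 and 108 in the high libraries, against 81.9, 77.9, 79.03, 86.4 and 73.3 in the low libraries. WT replicate 1 was the lowest high library and still above nmf219 replicate 4 (log2 difference 0.30 ± 0.071, limma adjusted p = 0.106). Tyms, the thymidylate synthase, was the other gene without overlap (79.1 ± 4.86 in high and 68.2 ± 3.82 in low libraries; log2 difference 0.23 ± 0.063, limma adjusted p = 0.113). Mcm6 was the most abundant member, at 134 ± 10.3 in high and 119 ± 4.94 in low libraries (log2 difference 0.19 ± 0.065, limma adjusted p = 0.151). DESeq2 called 8 of 18, against 1.80% of all genes. The continuous Hbb-y term, which is no separate support, called 18 of 18, against 9.25%. The median was 0.14 with the muscle list and Hbb-bs as terms.

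Most genes of the Lin28 and let-7 network were higher as well. Of 12 measured genes, 11 were higher, 7 at an unadjusted p under 0.05, against 10.2% of all genes. The groups were separated by 6, against 3.80% (median log2 difference 0.29, 0.29 within nmf219 and 0.29 within WT). Lin28a and Sall4, the members of earliest embryos, were not analysed here. Igf2bp2, an RNA-binding protein bound to growth factor transcripts and the most abundant member, had values of 141, 124, 130.0, 135 and 154 in the high libraries, against 113, 121, 115, 118 and 119 in the low libraries. The groups did not overlap (log2 difference 0.23 ± 0.066, limma adjusted p = 0.123). Igf2bp3, its paralog, had values of 97.2, 79.8, 88.2, 96.5 and 108 in the high libraries, against 77.8, 74.8, 76.9, 76.5 and 73.6 in the low libraries, and WT replicate 1 lay closest to the low libraries (log2 difference 0.33 ± 0.082, limma adjusted p = 0.109). Hmga1, the second HMGA chromatin protein, averaged 68.1 ± 8.74 in high and 50.4 ± 1.71 in low libraries, without overlap (log2 difference 0.40 ± 0.093, limma adjusted p = 0.106). Lin28b itself, named after its values were seen, had values of 7.74, 7.06, 8.27, 7.36 and 9.35 in the high libraries, against 5.46, 6.41, 4.81, 6.08 and 5.93 in the low libraries (log2 difference 0.38 ± 0.11, limma adjusted p = 0.122). Its groups did not overlap. Arid3a was the 1 member that was lower (log2 difference -0.12 ± 0.060, limma adjusted p = 0.279). The list median was 0.20 with the muscle list and Hbb-bs as terms, its lowest over 28 alternatives.

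Connective tissue matrix ran the other way, with a list median of -0.55 that was -0.25 with the muscle list and Hbb-bs as terms. Of 20 genes for small leucine-rich proteoglycans, elastic fibres and related fibroblast products, 19 were lower in high libraries and in both genotypes, against 34.5% of all genes lower in both. At an unadjusted p under 0.05 there were 16 of 20, against 10.8%, and 11 of 20 lay wholly below the low libraries, against 3.83% (median log2 difference -0.55, -0.45 within nmf219 and -0.66 within WT). Col3a1, the fibrillar collagen of soft connective tissue and the most abundant member, had values of 3460.1, 3841, 3154, 3445 and 2329.6 in the high libraries, against 5064, 4395, 4337, 4229 and 4309.9 in the low libraries. All high libraries were below all low ones (log2 difference -0.42 ± 0.15, limma adjusted p = 0.163). Fmod, the tendon and cartilage proteoglycan fibromodulin, had values of 133, 176, 127, 114 and 89.2 in the high libraries, against 226, 173, 243, 219 and 246 in the low libraries. WT replicate 1 was just above nmf219 replicate 2, so the groups touched (log2 difference -0.84 ± 0.20, limma adjusted p = 0.106). Lum, the proteoglycan lumican, averaged 363 ± 36.4 in high and 422 ± 31.9 in low libraries with overlap (log2 difference -0.32 ± 0.073, limma adjusted p = 0.106). DESeq2 called 5 of 20 as lower, against 2.11%. The continuous Hbb-y term, which is no separate support, called 16 of 20 as lower, against 9.65%. The mean of the list was 5.86 on the log2(value + 1) scale in WT replicate 4, against 6.39 to 6.82 in the other high and 6.99 to 7.22 in the low libraries.

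Bone genes were lower while cartilage was close to level. In the list of hypertrophy and bone matrix 14 of 15 measured genes were lower, 10 of 15 at an unadjusted p under 0.05, against 10.8% of all genes. Without overlap were 4 of 15, against 3.83% (median log2 difference -0.47, -0.32 within nmf219 and -0.57 within WT). Col1a2, a chain of type I collagen and the most abundant member, had values of 4556, 4831, 3860.5, 4099.6 and 2959 in the high libraries, against 6054, 5306, 6031, 5711 and 5997 in the low libraries. WT replicate 4 was lowest and no high library reached a low one (log2 difference -0.48 ± 0.15, limma adjusted p = 0.130). Alpl, the phosphatase of mineralizing matrix, averaged 21.6 ± 7.0 in high and 37.5 ± 5.85 in low libraries (log2 difference -0.85 ± 0.24, limma adjusted p = 0.122), and Runx2, the regulator upstream of Sp7, averaged 56.4 ± 10.5 in high and 72.7 ± 6.35 in low libraries (log2 difference -0.46 ± 0.13, limma adjusted p = 0.122); both overlapped between groups. The list median was -0.27 with the muscle list and Hbb-bs as terms. Col10a1, Mmp13, Bglap, Bglap2 and Mepe were not analysed here. Osteoclast genes were lower in 7 of 8, 3 of 8 at an unadjusted p under 0.05, against 10.8% of all genes. They were led by Ctsk, the protease that degrades bone collagen, at 39.8 ± 5.95 in high and 54.2 ± 2.71 in low libraries without overlap (log2 difference -0.46 ± 0.11, limma adjusted p = 0.109). Of 16 cartilage genes 7 were higher and 9 lower (median log2 difference -0.056, -0.11 within nmf219 and 0.028 within WT). At an unadjusted p under 0.05 were 2 (12.5%), both lower, near the 10.8% of all genes. Col2a1, the main cartilage collagen, averaged 12007 ± 1669 in high and 12364 ± 1613 in low libraries (log2 difference -0.12 ± 0.15, limma adjusted p = 0.672). Epyc, a cartilage and inner ear proteoglycan, averaged 231 ± 29.3 in high and 274 ± 17.5 in low libraries (log2 difference -0.36 ± 0.089, limma adjusted p = 0.111).

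Genes of basal epidermis were lower in 11 of 12, with 9 of 12 at an unadjusted p under 0.05, against 10.8% of all genes. Without overlap were 6 of 12, against 3.83% (median log2 difference -0.56, -0.38 within nmf219 and -0.76 within WT). Krt14, the keratin of basal keratinocytes, had values of 1.19, 1.39, 0.925, 1.36 and 0.215 in the high libraries, against 4.32, 2.88, 2.37, 2.98 and 4.37 in the low libraries. The high libraries were all below the low ones, at a low level throughout (log2 difference -1.20 ± 0.25, limma adjusted p = 0.106). Krt17, a keratin of skin appendages, averaged 1.08 ± 0.459 in high and 2.14 ± 0.470 in low libraries (log2 difference -0.78 ± 0.19, limma adjusted p = 0.106). Dst, a cytolinker that nerve and muscle also express, was the most abundant member and differed in sign between genotypes (-0.058 within nmf219 and 0.27 within WT; limma adjusted p = 0.717). Of the differentiated epidermis list 3 genes could be tested, 2 of them higher (median log2 difference 0.027, -0.066 within nmf219 and 0.079 within WT). Krt10, a keratin of the layers above the basal one, averaged 3.88 ± 0.301 in high and 3.81 ± 0.348 in low libraries (log2 difference 0.052 ± 0.091, limma adjusted p = 0.778), and its partner Krt1, whose pooled means run against the mean of its differences within genotypes, averaged 1.33 ± 0.173 in high and 1.46 ± 0.276 in low libraries (log2 difference 0.027 ± 0.11, limma adjusted p = 0.911; -0.066 within nmf219 and 0.12 within WT). Sbsn, a secreted epidermal protein, averaged 13.2 ± 0.695 in high and 15.04 ± 1.09 in low libraries (log2 difference -0.17 ± 0.074, limma adjusted p = 0.213). With the muscle list and Hbb-bs as terms, the basal list had a median of -0.12. Skin beside the ear can enter a dissection, and its part in these differences was not tested.

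Macrophage genes were lower in 16 of 16, 9 of 16 at an unadjusted p under 0.05, against 10.8% of all genes. Without overlap were 3 of 16, against 3.83% (median log2 difference -0.36, -0.26 within nmf219 and -0.50 within WT). F13a1, a transglutaminase of tissue macrophages and the most abundant member, had values of 44.8, 72.96, 57.5, 48.7 and 35.2 in the high libraries, against 78.3, 87.6, 75.4, 63.9 and 87.2 in the low libraries. WT replicate 1 lay among the low libraries (log2 difference -0.74 ± 0.20, limma adjusted p = 0.113). The macrophage median was -0.099 with the muscle list and Hbb-bs as terms. Csf1r, the receptor on which macrophages depend, averaged 37.9 ± 7.75 in high and 51.6 ± 4.33 in low libraries (log2 difference -0.51 ± 0.15, limma adjusted p = 0.126). Of 10 granulocyte and mast cell genes, 9 were lower (median log2 difference -0.33, -0.24 within nmf219 and -0.42 within WT). Only 1 of 10 was at an unadjusted p under 0.05, a share near the 10.8% of all genes. It was Tpsb2, a mast cell tryptase, at 1.80 ± 0.285 in high and 2.51 ± 0.596 in low libraries (log2 difference -0.35 ± 0.15, limma adjusted p = 0.227). All 7 measured fat cell genes were lower, 3 of 7 at an unadjusted p under 0.05, against 10.8% of all genes (median log2 difference -0.42, -0.45 within nmf219 and -0.38 within WT). Fabp4, the fatty acid carrier of fat and endothelium, had values of 6.34, 8.01, 5.34, 7.23 and 1.43 in the high libraries, against 18.2, 13.5, 11.7, 11.1 and 10.1 in the low libraries. The groups did not overlap, and WT replicate 4 was well below the rest (log2 difference -0.95 ± 0.39, limma adjusted p = 0.200). Adipoq, Plin1 and Lep, which define mature fat cells, were not analysed here.

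**Figure D3:**
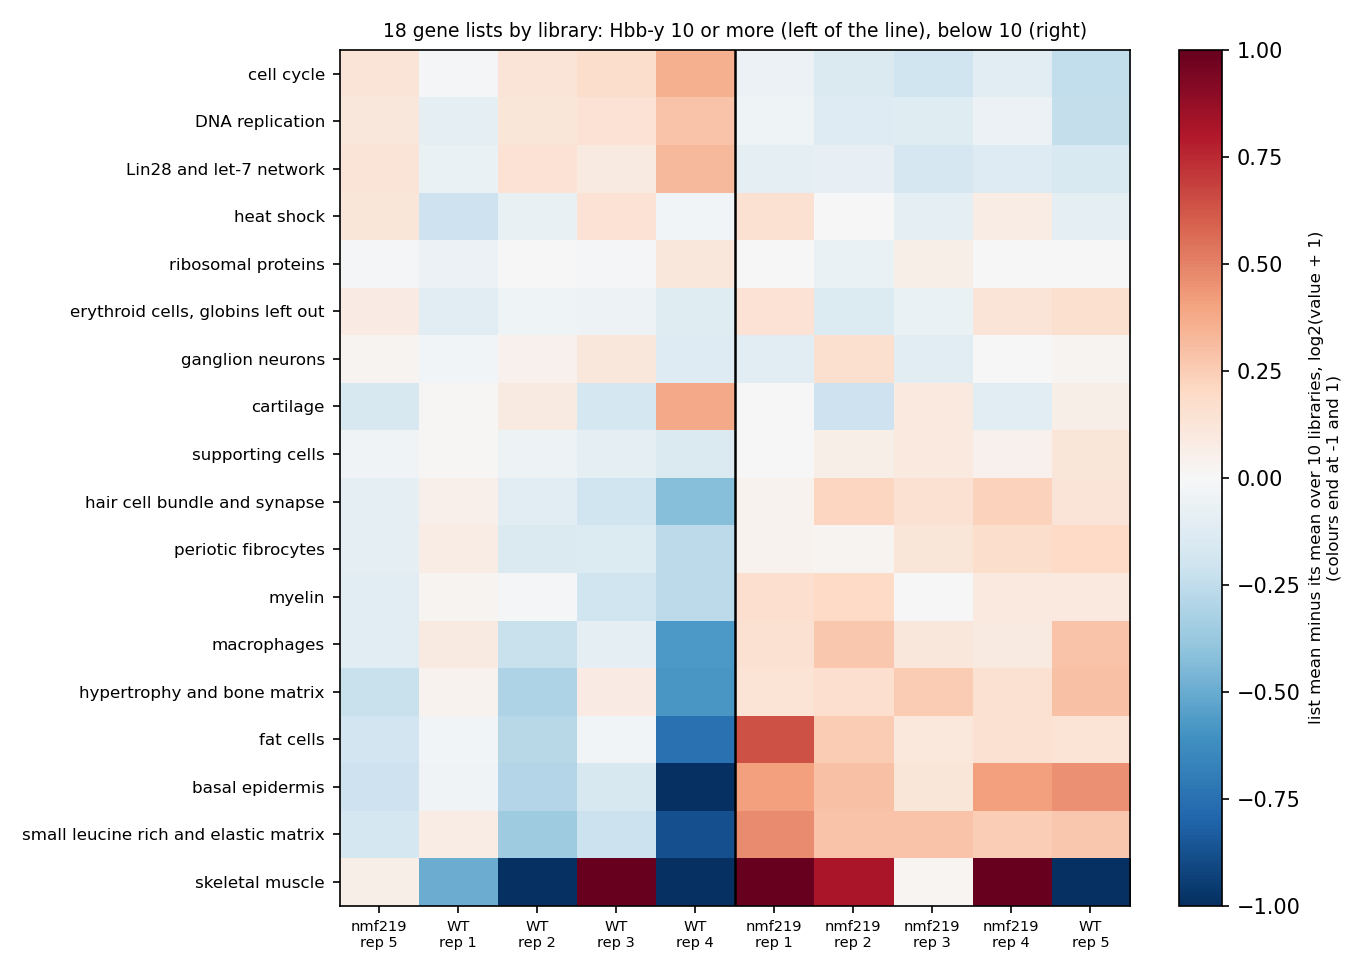
Mean log2(value + 1) of 18 gene lists in each library (columns), minus the mean of that list over the 10 libraries; red is above and blue below it, and high libraries stand left of the line. Cell cycle, DNA replication and the Lin28 and let-7 network are red on the left except in WT replicate 1, which lies slightly below the mean. Basal epidermis and fat lists are blue in all 5 high libraries, connective tissue and macrophages in all but WT replicate 1, and bone in all but WT replicates 1 and 3, and skeletal muscle follows neither side.

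Genes of hair cells were mostly lower. Of 22 measured bundle and synapse genes 20 were lower, 9 at an unadjusted p under 0.05, against 10.8% of all genes. Without overlap were 2 of 22, against 3.83% (median log2 difference -0.24, -0.19 within nmf219 and -0.34 within WT). Otof, the calcium sensor for transmitter release at the hair cell synapse and the most abundant member, had values of 27.7, 39.00, 31.1, 26.1 and 19.1 in the high libraries, against 35.3, 42.7, 44.3, 41.7 and 49.5 in the low libraries. WT replicate 1 lay above nmf219 replicate 1, and the other 4 high libraries were below all low ones (log2 difference -0.68 ± 0.19, limma adjusted p = 0.122). Chrna10, a subunit of the efferent acetylcholine receptor, had values of 0.766, 1.22, 1.40, 0.984 and 0.477 in the high libraries, against 1.60, 1.81, 1.72, 1.75 and 1.80 in the low libraries, without overlap (log2 difference -0.56 ± 0.15, limma adjusted p = 0.117). Ocm, a calcium buffer of outer hair cells, was at 0.0528, 0.876, 0.0895, 0.254 and 0 in the high libraries, against 0.686, 1.31, 1.16, 1.22 and 1.21 in the low libraries. It was at or near the level of a few reads in 3 high libraries, where 3 reads correspond to 0.0716 to 0.0952 (log2 difference -0.89 ± 0.21, limma adjusted p = 0.106). Among 12 regulators 10 were lower, 6 at an unadjusted p under 0.05, against 10.8% of all genes (median log2 difference -0.16, -0.13 within nmf219 and -0.20 within WT). Myo6, an actin motor of the hair cell and the most abundant, averaged 127 ± 15.4 in high and 147 ± 8.38 in low libraries (log2 difference -0.25 ± 0.093, limma adjusted p = 0.176). Gfi1, a transcription factor of hair cell maturation, averaged 3.81 ± 0.689 in high and 4.87 ± 0.485 in low libraries and Pou4f3, which keeps hair cells alive, 7.90 ± 0.431 in high and 9.12 ± 0.517 in low libraries, both without overlap (limma adjusted p = 0.165 for each). The members not at an unadjusted p under 0.05 included Atoh1, the factor that starts hair cell fate (log2 difference -0.15 ± 0.14, limma adjusted p = 0.557).

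Lists for the other cells of the labyrinth also had more genes lower than higher. Supporting cell genes were lower in 12 of 17 and at an unadjusted p under 0.05 in 5, all lower, against 10.8% of all genes (median log2 difference -0.12, -0.13 within nmf219 and -0.15 within WT). Their most abundant member, Fgfr3, a growth factor receptor of pillar and Deiters cells and of cartilage, averaged 176 ± 43.7 in high and 142 ± 13.4 in low libraries (log2 difference 0.16 ± 0.16, limma adjusted p = 0.576). S100a1, a calcium-binding protein, averaged 16.2 ± 1.82 in high and 20.02 ± 0.975 in low libraries without overlap (log2 difference -0.32 ± 0.090, limma adjusted p = 0.122), and Bace2, a membrane protease, 12.3 ± 2.32 in high and 17.7 ± 1.62 in low libraries, also without overlap (log2 difference -0.53 ± 0.14, limma adjusted p = 0.112). Among 13 genes of the tectorial membrane and otoconia, Otoa, which attaches the tectorial membrane to the epithelium, had values of 32.3, 36.4, 31.9, 32.4 and 31.3 in the high libraries, against 40.7, 39.9, 44.9, 39.6 and 40.98 in the low libraries. The groups did not overlap (log2 difference -0.33 ± 0.062, limma adjusted p = 0.106), while the list was lower in 8 of 13 (median log2 difference -0.11, -0.15 within nmf219 and -0.072 within WT). The other 5 were higher, with differences of up to 0.38. At an unadjusted p under 0.05 were 3 lower, against 10.8% of all genes, and 1 higher, against 10.2%. Smoc2, a matricellular protein, averaged 142 ± 14.1 in high and 186 ± 9.26 in low libraries (log2 difference -0.35 ± 0.079, limma adjusted p = 0.106).

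Marginal cells of the stria vascularis, which secrete potassium into endolymph, had 9 of 11 genes lower, 5 at an unadjusted p under 0.05, against 10.8% of all genes. At that level 1 more was higher, against 10.2% (median log2 difference -0.18, -0.12 within nmf219 and -0.23 within WT). Esrrb differed by genotype as well, so the means over 5 libraries of mixed genotype, 22.5 ± 10.6 in high and 18.9 ± 14.7 in low libraries, run against the differences of -0.50 within nmf219 and -0.82 within WT (limma adjusted p = 0.146). Slc12a2, the sodium, potassium and chloride cotransporter, was the most abundant member (log2 difference -0.17 ± 0.079, limma adjusted p = 0.238). Melanocyte and intermediate cell genes were lower in 8 of 11 (median log2 difference -0.095, -0.026 within nmf219 and -0.13 within WT). Kcnj10, the potassium channel behind the endocochlear potential, averaged 8.35 ± 1.22 in high and 11.9 ± 1.09 in low libraries without overlap (log2 difference -0.46 ± 0.12, limma adjusted p = 0.112). Periotic fibrocyte genes were lower in 13 of 14, 7 at an unadjusted p under 0.05, against 10.8% of all genes (median log2 difference -0.17, -0.14 within nmf219 and -0.26 within WT). Coch, an abundant protein of the otic matrix, had values of 118, 180.5, 126, 119.8 and 63.6 in the high libraries, against 155, 175, 204, 178 and 241 in the low libraries. WT replicate 1 was within the low libraries and WT replicate 4 far below them (log2 difference -0.82 ± 0.28, limma adjusted p = 0.153). Otor had a log2 difference of -0.62 ± 0.17 (limma adjusted p = 0.114).

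Ganglion neurons were split. Of 19 genes 11 were higher and 8 lower (median log2 difference 0.041, 0.047 within nmf219 and 0.029 within WT). At an unadjusted p under 0.05 were 4 higher, against 10.2% of all genes, and 3 lower, against 10.8%. Isl1, a LIM homeobox factor of young sensory neurons, had values of 51.1, 45.9, 52.7, 53.2 and 57.8 in the high libraries, against 41.4, 46.00, 43.7, 44.4 and 43.3 in the low libraries. WT replicate 1 was just under nmf219 replicate 2 (log2 difference 0.24 ± 0.070, limma adjusted p = 0.123). Nefh, the heavy neurofilament of mature large axons, had values of 5.02, 5.31, 6.12, 6.82 and 2.86 in the high libraries, against 7.55, 10.9, 5.30, 7.76 and 11.2 in the low libraries. It was lower on average with overlap (log2 difference -0.77 ± 0.26, limma adjusted p = 0.155), while Nefm, the medium chain and the most abundant member, differed in sign between genotypes (0.086 within nmf219 and -0.17 within WT). Of 18 synapse genes 16 were lower, 9 at an unadjusted p under 0.05, against 10.8% of all genes (median log2 difference -0.20, -0.18 within nmf219 and -0.21 within WT). Among them Vamp2, the vesicle fusion protein, averaged 108 ± 6.22 in high and 121 ± 6.37 in low libraries (log2 difference -0.21 ± 0.058, limma adjusted p = 0.122).

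Schwann cell and glia genes were lower in 9 of 14 (median log2 difference -0.11, -0.12 within nmf219 and -0.13 within WT). Myelin genes were lower in 11 of 13, 7 at an unadjusted p under 0.05, against 10.8% of all genes (median log2 difference -0.11, -0.13 within nmf219 and -0.098 within WT). Mal, a raft protein of myelin and epithelia, had values of 8.59, 11.8, 9.79, 5.33 and 2.98 in the high libraries, against 17.1, 17.6, 12.3, 16.02 and 20.2 in the low libraries. The groups did not overlap (log2 difference -1.13 ± 0.35, limma adjusted p = 0.134). Pmp22, the most abundant member and one that mesenchyme also expresses, averaged 127 ± 5.95 in high and 135 ± 3.44 in low libraries (log2 difference -0.11 ± 0.044, limma adjusted p = 0.185).

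Lists of stress and hormone responses differed in direction. Targets of the glucocorticoid receptor were lower in 15 of 16, 8 at an unadjusted p under 0.05, against 10.8% of all genes. Without overlap were 3, against 3.83% (median log2 difference -0.20, -0.20 within nmf219 and -0.26 within WT). Tsc22d3, a leucine zipper protein induced by glucocorticoids, had values of 57.5, 65.5, 59.97, 59.1 and 56.1 in the high libraries, against 69.9, 67.3, 72.2, 72.05 and 70.9 in the low libraries. Every high library was below every low one (log2 difference -0.26 ± 0.052, limma adjusted p = 0.106), but Fkbp5, a target often used as a readout, had a difference near 0 (log2 difference -0.022 ± 0.059, limma adjusted p = 0.860). Immediate early genes were lower in 11 of 14, 8 at an unadjusted p under 0.05, against 10.8% of all genes (median log2 difference -0.19, -0.17 within nmf219 and -0.28 within WT). Among them were Fosb at 0.635 ± 0.190 in high and 1.35 ± 0.426 in low libraries (log2 difference -0.71 ± 0.13, limma adjusted p = 0.106) and Klf4 at 52.1 ± 3.99 in high and 58.8 ± 5.18 in low libraries (log2 difference -0.27 ± 0.063, limma adjusted p = 0.106). Hypoxia genes were divided, 6 higher and 8 lower (median log2 difference -0.023, 0.0046 within nmf219 and -0.056 within WT). The 3 at an unadjusted p under 0.05 were lower, against 10.8% of all genes. They included Ndrg1 at 31.9 ± 7.10 in high and 44.4 ± 3.76 in low libraries (log2 difference -0.56 ± 0.16, limma adjusted p = 0.125). Heat shock genes were higher in 9 of 12. Only 1 of 12 (8.33%) was at an unadjusted p under 0.05, against 10.2% of all genes. It was Hspd1, the mitochondrial chaperonin (log2 difference 0.22 ± 0.083, limma adjusted p = 0.179). Interferon response genes were higher in 8 of 13 (median log2 difference 0.0099, -0.028 within nmf219 and 0.036 within WT).

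Other lists had small or mixed differences. Ribosomal protein genes were higher in 14 of 22 and oxidative phosphorylation genes in 17 of 20, none of either at an unadjusted p under 0.05 (median log2 difference 0.013, 0.00050 within nmf219 and 0.018 within WT for ribosomal proteins; median log2 difference 0.047, 0.0030 within nmf219 and 0.093 within WT for oxidative phosphorylation). Rplp0, a ribosomal stalk protein, averaged 1346 ± 59.1 in high and 1336 ± 42.7 in low libraries (log2 difference 0.013 ± 0.052, limma adjusted p = 0.912). Brain genes were higher in 4 of 9 (median log2 difference -0.0055, -0.0013 within nmf219 and 0.022 within WT), and Neurod6, Tbr1, Olig2 and Gfap were not analysed here. Endothelial genes were lower in 12 of 15 by small amounts (median log2 difference -0.068, -0.054 within nmf219 and -0.068 within WT). Motile cilia genes had none of 12 at an unadjusted p under 0.05 (median log2 difference -0.17, -0.12 within nmf219 and -0.12 within WT). Choroid plexus genes were lower in 6 of 9 (median log2 difference -0.22, -0.27 within nmf219 and -0.27 within WT). The 3 higher members included Otx2, a regulator of that tissue, and Clic6 (log2 difference 0.24 ± 0.064, limma adjusted p = 0.113). Differences in this list ran from -0.44 to 0.88. The difference of its mean was -0.21 within nmf219 and 0.24 within WT, so only the median was lower in both.

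The imprinted growth genes did not share a direction, with 9 of 17 higher (median log2 difference 0.0048, -0.059 within nmf219 and 0.068 within WT). Nnat, neuronatin, had values of 202, 254, 215, 220.5 and 253 in the high libraries, against 153, 164, 163, 165 and 169 in the low libraries. The groups did not overlap (log2 difference 0.40 ± 0.067, limma adjusted p = 0.106). H19, a noncoding RNA of fetal mesoderm and endoderm, had values of 6493, 7300.3, 6256, 6952 and 6705 in the high libraries, against 8001, 7442, 7483, 7622 and 7552 in the low libraries, lower without overlap (log2 difference -0.19 ± 0.079, limma adjusted p = 0.202). Igf2, the fetal growth factor beside H19, averaged 4519 ± 284 in high and 5063 ± 168 in low libraries (log2 difference -0.18 ± 0.073, limma adjusted p = 0.197). These 2 neighbours are among the most abundant transcripts of the table.

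Red cell genes other than globins did not follow the embryonic globins. Of 18 measured, 7 were higher and 11 lower, 3 of them lower at an unadjusted p under 0.05, against 10.8% of all genes (median log2 difference -0.070, 0.075 within nmf219 and -0.19 within WT). Alas2, the first enzyme of erythroid heme synthesis, had values of 49.9, 39.9, 40.03, 41.9 and 21.1 in the high libraries, against 77.4, 47.9, 53.1, 61.95 and 96.4 in the low libraries. Its differences were -0.24 within nmf219 and -1.45 within WT (limma adjusted p = 0.159), with WT replicate 5 the highest of all libraries, as for Hbb-bs. Tfrc, the transferrin receptor, which all dividing cells use, differed in sign between genotypes (-0.13 within nmf219 and 0.10 within WT). With the mean of this list as a term in the fit, 0 genes were called and 2427 were at an unadjusted p under 0.05.

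Lists were also compared within each genotype, where 1 side of the difference rested on 1 library. Of 38 lists, 11 had a median above 0 and 27 below, and 29 had the same sign in nmf219 and WT. Of all single genes 71.7% had the same sign in both, so the count of lists is a description only. The interaction of split and genotype called 0 genes with limma, with 217 at an unadjusted p under 0.05 (1.40%). DESeq2 called 1. Of the red cell list 7 of 18 genes were at an unadjusted interaction p under 0.05, against that 1.40%, among them Bpgm, the red cell enzyme that makes bisphosphoglycerate (0.0025 within nmf219 and -0.59 within WT), and of the skeletal muscle list 0 of 20. Skeletal muscle had the widest gap between the medians: its median was -0.88 within nmf219 and 0.42 within WT, and only 1 of 20 genes had the same sign in both. Myh3, the embryonic myosin heavy chain, had values of 370.1, 209.5, 129, 693 and 48.4 in the high libraries, against 884, 426, 249, 507 and 93.8 in the low libraries. The libraries varied widely inside both groups, with WT replicate 4 lowest and nmf219 replicate 1 highest (limma adjusted p = 0.866). The mean of the 20 muscle genes on the log2(value + 1) scale was 5.44, 4.89, 4.22, 6.60 and 3.09 in the high libraries, against 7.31, 6.20, 5.40, 6.40 and 4.27 in the low libraries. With that mean as a term, 0 genes were called and 3193 were at an unadjusted p under 0.05, against 3249 without it. Muscle progenitor genes also differed in sign (median log2 difference 0.023, -0.27 within nmf219 and 0.31 within WT).

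**Figure D4:**
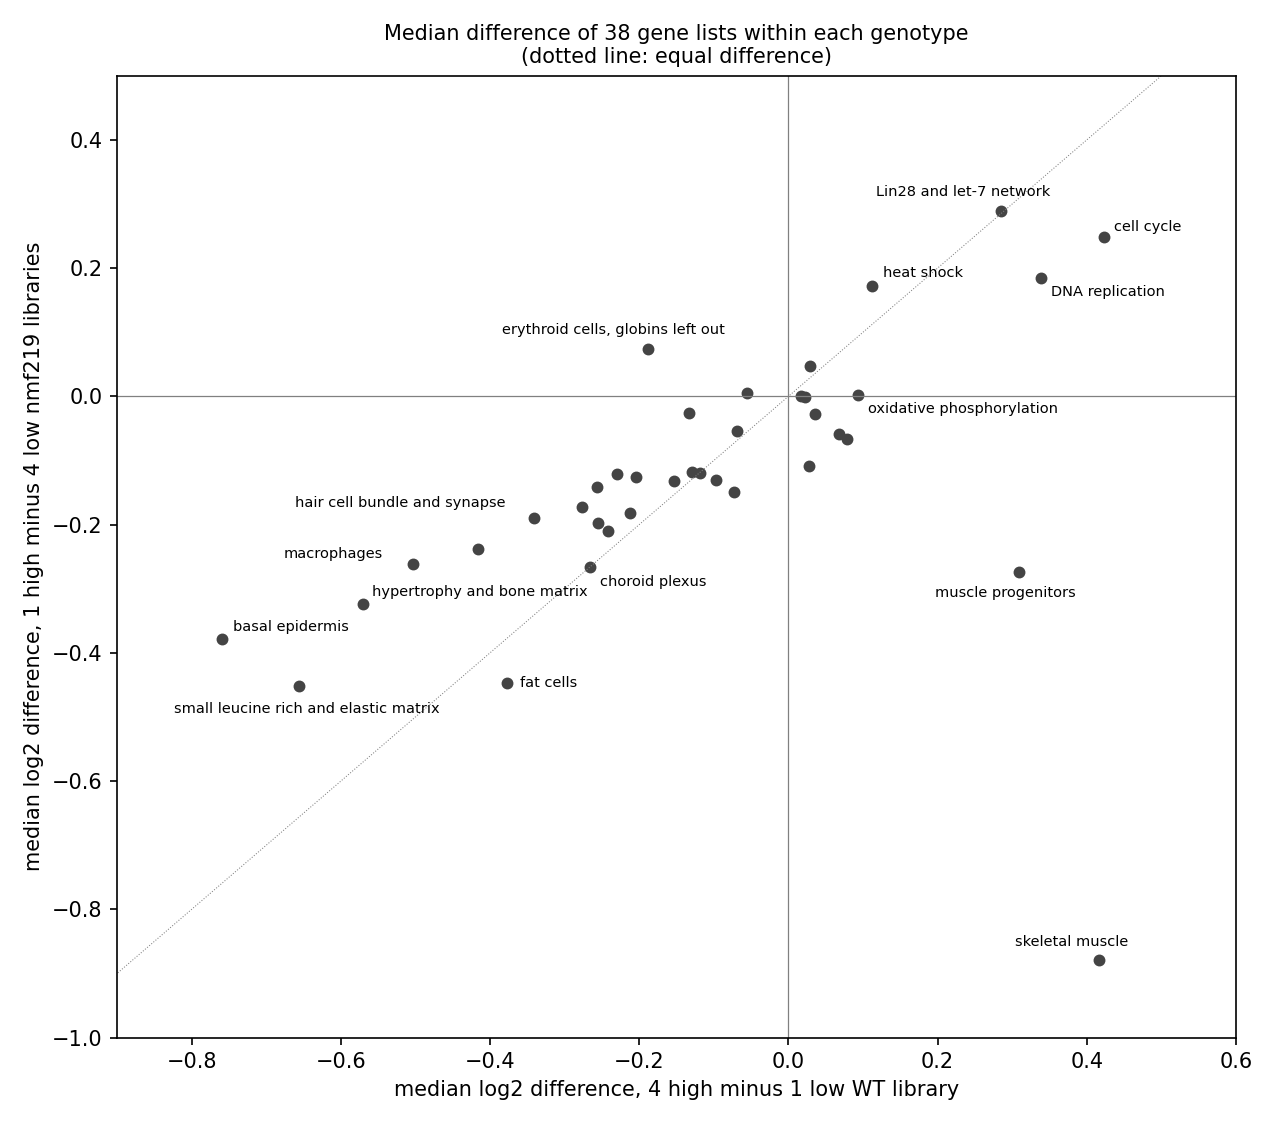
Median log2 difference (high minus low) of each of 38 gene lists within WT (horizontal axis, 4 high and 1 low library) and within nmf219 (vertical axis, 1 high and 4 low libraries). Cell cycle lies at 0.25 within nmf219 and 0.42 within WT, basal epidermis at -0.38 within nmf219 and -0.76 within WT, and skeletal muscle lies far from the dotted line of equal difference, at -0.88 within nmf219 and 0.42 within WT.

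Within a genotype and a range of description numbers, 1 high library could be set against 1 low one, without a test. For nmf219 replicate 5 minus nmf219 replicate 4, in the upper range, the cell cycle list had a median of 0.24 with 20 of 20 higher, and the leucine-rich and elastic matrix list -0.41 with 1 of 20 higher. For WT replicate 2 minus WT replicate 5, in the lower range, the medians were 0.39 with 20 of 20 higher and -0.56 with 0 of 20 higher. Among the WT libraries with Xist under 100, replicates 3 and 4 minus replicate 5 gave 0.50 with 20 of 20 higher and -0.97 with 0 of 20 higher. Lin28 and let-7 genes had medians of 0.28, 0.30 and 0.38 in these 3 comparisons. The last 2 comparisons share WT replicate 5. With the range as a term in the fit over all libraries, 0 genes were called and 1755 were at an unadjusted p under 0.05. Age, litter and the handling of each ear are not in the labels and were not tested.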

How the data were processed

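Total RNA (1 µg) from snap-frozen E16.5 inner ears was taken up in Trizol and made into standard Illumina libraries, per the labels' protocols. How reads were aligned and counted, with which strand setting, annotation and build, is not given in the sources used here. The authors deposited 1 table of 15472 genes in which each library has a column of normalized signal (counts scaled to nearly CPM, per the file headers). In each library 100% of the values were whole multiples, within 0.01 read, of the smallest gap between values, and dividing by that step gave reads; the values were otherwise used as deposited. The authors' log2 fold changes, fold ratio, p-values and FDR by genotype, also deposited, were not used. Symbols of 22 genes turned into dates were restored from their identifiers, and 136 genes have no symbol.

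A script split the libraries at an Hbb-y value of 10. The 6 globin genes were left out, and limma-trend (version 3.58.1) fitted log2(value + 1) on genotype and split, testing 15466 genes with Benjamini-Hochberg adjustment at 0.05 (R 4.3.3, 7 residual degrees of freedom). The p-values are for association with a split made from a measured gene, not for a treatment. Alternatives were edgeR 4.0.16, DESeq2 1.42.0 and limma-voom on the recovered reads, pseudocounts of 0.1 and 0.5, a filter at a mean of 5, 2 scalings, other terms, and leaving out each library. The chi-square per degree of freedom between 2 libraries was 7.93 to 80.7 over all 45 pairs, so none was deposited more than once. The fit was also run on simulated data with known changes. The outcome is not given here, so the power behind the count of 0 genes is left unstated.

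The split and the 38 gene lists were chosen with earlier results of these data known. Named genes are the 12 per direction with the smallest p among those with a mean of at least 1, the same sign in both genotypes and a log2 difference of at least 0.5, since none passed, and of each list the most abundant member and up to 3 with the smallest p; globins, Xist, Tsix, Y-linked and unnamed genes were left out. Promoters are RefSeq's (GRCm38.p6); gene coordinates are printed as deposited. Some genes of the lists are counted but not reported here by name.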

Additional observations from a re-analysis of the deposited data

Results flagged for a closer look

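In 128 tests of 1 library against the other 4 of its group, 12 stood far apart. The nominal rate is about 1 in 20, but these tests need not follow it. They cover genes chosen for a small p and lists that share members. WT replicate 4 did so among high libraries for the share of Hbb-y in beta-type globin RNA, at 3.51% against 0.545 to 1.21%. In the same library the basal epidermis list had a mean of 2.73 on the log2(value + 1) scale against 3.44 to 3.70, Prkg2 was at 42.5 against 22.7 to 27.4, and Col17a1 was at 1.10 against 2.09 to 2.25. WT replicate 2 had Dnm3os at 167 against 278 to 296 in the other high libraries. Among low libraries, WT replicate 5 had a marginal cell list mean of 4.42 against 3.58 to 3.74 in the 4 nmf219 libraries, and Mup10 at 2.45 against 1.32 to 1.63; as the only WT library of that group, its genotype and its place there cannot be told apart. In nmf219 replicate 1 the means of the leucine-rich and elastic matrix list and of the fat cell list were 7.22 and 3.96, against 6.99 to 7.03 and 3.43 to 3.58. In nmf219 replicate 2 the Schwann cell and glia list had a mean of 4.91 against 4.75 to 4.77, and Otx2 was at 3.87 against 5.002 to 5.29. In nmf219 replicate 4 Dnm3os was at 277 against 157 to 185.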

How the results depend on the processing

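The count of genes past an adjusted p of 0.05, 0 in the fit as reported, was 605 with DESeq2, 975 without a genotype term, 1606 with Xist as a term, 2922 with log2(Hbb-y + 1) as a continuous term, 1 in WT libraries alone and 18 in nmf219 libraries alone, both sets lower in high libraries. It was 0 under both other pseudocounts, the filter at a mean of 5, both other scalings, edgeR, limma-voom, the replicate block, the range, muscle and erythroid terms and with globins kept. Settings added after the data were seen gave 3115 with the ratio of Hbb-y to beta-type globin RNA and 880 with continuous Hbb-y without WT replicate 4. The count was 0 with the muscle list and Hbb-bs as terms (555 of 15466 genes at an unadjusted p under 0.05, against 3249 as reported). Leaving out 1 library at a time gave 0 to 1154, with 1154 without WT replicate 1 and 423 without WT replicate 4. The count of genes whose difference depended on genotype, 0 as reported, was 1 with DESeq2, and 0 to 2 when 1 library was left out (2 without WT replicate 1 and 1 without nmf219 replicate 4); without WT replicate 5 or nmf219 replicate 5 it could not be fitted. Replicate numbers recur in both genotypes, but same-numbered libraries did not deviate together (correlations -0.46 to 0.13 over 5 numbers), so a fit with the replicate number as a block, which called 0 genes with 2664 at an unadjusted p under 0.05, pairs nothing the labels name. Other scalings moved the median of all genes by under 0.1 on the log2 scale. Of the list medians, 1116 alternatives stayed within the spread and 61 moved beyond it, and 15 of 38 lists had a median of the opposite sign under at least 1 alternative. With the muscle list and Hbb-bs as terms, the medians moved to -0.12 for basal epidermis, -0.099 for macrophages, -0.25 for leucine-rich and elastic matrix, -0.12 for the hair cell bundle and synapse and -0.25 for fat cells. Without a genotype term the medians were 0.091 for marginal cells and 0.12 for melanocytes, against -0.18 and -0.095 as reported. The 24 leading genes were chosen for 1 sign in both genotypes, so their sign is no measure of stability. Among the other named genes, the log2 difference took the opposite sign in 51 alternatives, and the cause was not tested. Without a genotype term, it was 0.013 for Tfrc, 0.021 for Mmp9, 0.00032 for Col9a1, 0.087 for Abcg1, 0.32 for Esrrb, 0.15 for Dct, -0.74 for Myh3, -0.013 for Dst and -0.075 for Krt1. In WT libraries alone, it was 0.10 for Tfrc, 0.032 for Myh8, 0.18 for Mybpc1 and -0.087 for Zic1. With the muscle list and Hbb-bs as terms, it was 0.0017 for Alas2, 0.017 for Bpgm, -0.053 for Fgfr3, 0.041 for Nefm, 0.068 for Cdh5, -0.013 for Krt10, -0.0015 for Krt1 and -0.036 for Rplp0. In nmf219 libraries alone, it was 0.0025 for Bpgm, 0.086 for Nefm, -0.34 for Myh3, -0.058 for Dst, -0.066 for Krt1 and -0.0068 for Atp5a1. Per unit of the log2 ratio of Hbb-y to beta-type globin RNA, it was 0.00058 for Col9a1, 0.0051 for Col9a2 and -0.048 for Myh3. Per unit of log2(Hbb-y + 1), it was 0.0028 for Col9a2, -0.040 for Myh3 and -0.0084 for Dst. Per unit of log2(Hbb-y + 1) without WT replicate 4, it was 0.016 for Nefm and -0.0045 for Rplp0. With Xist as a term, it was -8.77e-05 for Dst. With the range of the description number as a term, it was 0.022 for Ifit3 and -0.018 for Rplp0. Leaving out 1 library at a time, the log2 difference ran from -0.13 to 0.10 for Tfrc, -0.59 to 0.0025 for Bpgm, -0.17 to 0.086 for Nefm, -0.34 to 0.88 for Myh3, -1.56 to 0.032 for Myh8, -0.82 to 0.18 for Mybpc1, -0.058 to 0.27 for Dst, -0.066 to 0.12 for Krt1, -0.087 to 0.16 for Zic1, -0.0047 to 0.023 for Rplp0 and -0.0068 to 0.091 for Atp5a1. At the depth of these libraries 3 reads correspond to values of 0.0716 to 0.0952, and levels at or under that, as for Ocm in some high libraries, cannot be told from 0.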
